A study of Mus musculus with 15 samples.

Results

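Foxo1, Foxo3 and Foxo4 encode the FOXO transcription factors found in lymphocytes, and Klf2, Pik3ip1, Ccng2, Irs2, Sesn3 and S1pr1 are genes that FOXO factors, or KLF2 downstream of them, switch on in resting cells. These 9 genes were taken by symbol from the 11551 genes listed in any of the authors' 4 tables. All 9 symbols were found, each on 1 Ensembl identifier. They were measured by RNA sequencing in 15 libraries of mouse Abelson cells, which are pre-B cells transformed by the v-Abl kinase.

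Growth signals through phosphoinositide 3-kinase (PI3K) activate the kinase AKT, which phosphorylates FOXO proteins and drives them out of the nucleus. When that signal stops, FOXO factors return to the nucleus and turn on genes of cell-cycle arrest, of survival under stress and of lymphocyte recirculation, together with genes that feed back on PI3K. In pre-B cells FOXO1 is known for driving the recombinase genes Rag1 and Rag2. FOXO activity is set largely by protein phosphorylation and location, and mRNA levels do not measure either.

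Imatinib, which blocks the Abl kinase, was on all 15 cultures for 48 h, and the labels give the cells as passage 10 to 15. The groups hold 3 libraries each. Rag_SPIC_noDOX and Rag_SPIC_DOX are Rag -/- cells with a tetracycline-inducible construct for SPIC, an ETS-family transcription factor, grown without and with doxycycline (DOX). Rag_SPIC_DOX_shBCLAF1 is the same induced line with a short hairpin RNA directed at BCLAF1. Art and Art_shBCLAF1 are Art -/- cells, deficient in the DNA-end nuclease Artemis, without and with that hairpin, and their labels name no SPIC construct. Rag -/- cells make no recombinase breaks, while Art -/- cells make them and cannot repair them. No label names a control hairpin. No library was kept without imatinib, so what the inhibitor itself does to these genes cannot be measured here, and each comparison is between imatinib-treated groups. The labels do not say that replicates are separate cultures. The p-values then cover only the spread seen between samples, which may be technical.

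The libraries had effective sizes of 17.2 to 27.1 M reads, except Art replicate 3 with 5.81 M. That library had 145 genes at 0 reads against 19 to 56 elsewhere, and it lay 0.94 and 0.95 log2 units (root mean square over genes) from the other Art libraries. Rag_SPIC_DOX replicates 1 and 2 lay 0.83 apart, and all other pairs within a group were 0.24 to 0.58 apart. Bclaf1 mRNA was not lower where the hairpin is named. It averaged 7.73 log2 CPM in Rag_SPIC_DOX and 8.04 in Rag_SPIC_DOX_shBCLAF1, and 7.32 in Art and 8.32 in Art_shBCLAF1. The Art mean is lowered by replicate 3, at 6.41 against 7.81 and 7.75 in Art replicates 1 and 2. Directions for the libraries labelled shBCLAF1 are therefore those of the label. Spic also differed with the label, at 4.21 against 7.46 in the Rag pair and 0.44 against 4.54 in the Art pair, so its level and the label cannot be told apart. Of 13 pre-B markers 12 were among the 11551 genes and none of these was at 0 in any library. A gene outside the 11551 was not analysed, but it may have been detected. The authors' 4 tables list only genes that passed there.

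Levels are in log2 CPM, the log2 of reads scaled to a common library size (CPM). A difference is given as a log2 fold change from limma's test with its standard error (SE), for 3 libraries against 3, and a gene is said to have risen or fallen at an adjusted p below 0.05 over all 11551 genes. Ranges are called apart where every library of one group lies above every library of the other. In bulk RNA, fewer cells that express a gene and less of its RNA per cell cannot be told apart.

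Foxo3, Foxo4, Pik3ip1, Ccng2 and Irs2 fell with the shBCLAF1 label in both lines, and Klf2 rose in both. Foxo1 and S1pr1 fell in the Art line and Sesn3 in the Rag line. In Rag_SPIC_DOX_shBCLAF1 against Rag_SPIC_DOX, 6 of the 9 fell and 1 rose, where 53.6% of all genes passed, 28.5% higher and 25.1% lower. In Art_shBCLAF1 against Art, 7 fell and 1 rose, where 49% of all genes passed, 25% higher and 24.1% lower. The median of the 9 was -0.69 and -0.72, beside 0.05 over all genes in both. The groups without the hairpin differed less. Art against Rag_SPIC_noDOX gave 1 rise and no fall, where 5.14% of all genes passed (2.58% higher, 2.56% lower). In Rag_SPIC_DOX against Rag_SPIC_noDOX limma called 0 of the 9, with 1 at an unadjusted p below 0.05, where 11.8% of all genes passed (3.16% higher, 8.67% lower). The authors' deposited tables list more of these genes. On doxycycline they give Foxo1 (0.20), Pik3ip1 (0.18), Ccng2 (-0.21) and Klf2 (-0.26). For Art against Rag_SPIC_noDOX they give S1pr1 (0.75), Irs2 (0.32), Foxo3 (-0.18), Klf2 (-0.42) and Sesn3 (-0.42). All 9 are listed for both hairpin comparisons. Those 4 tables hold 33556 rows for the 11551 genes, 152 of them duplicates.

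**Figure D1:**
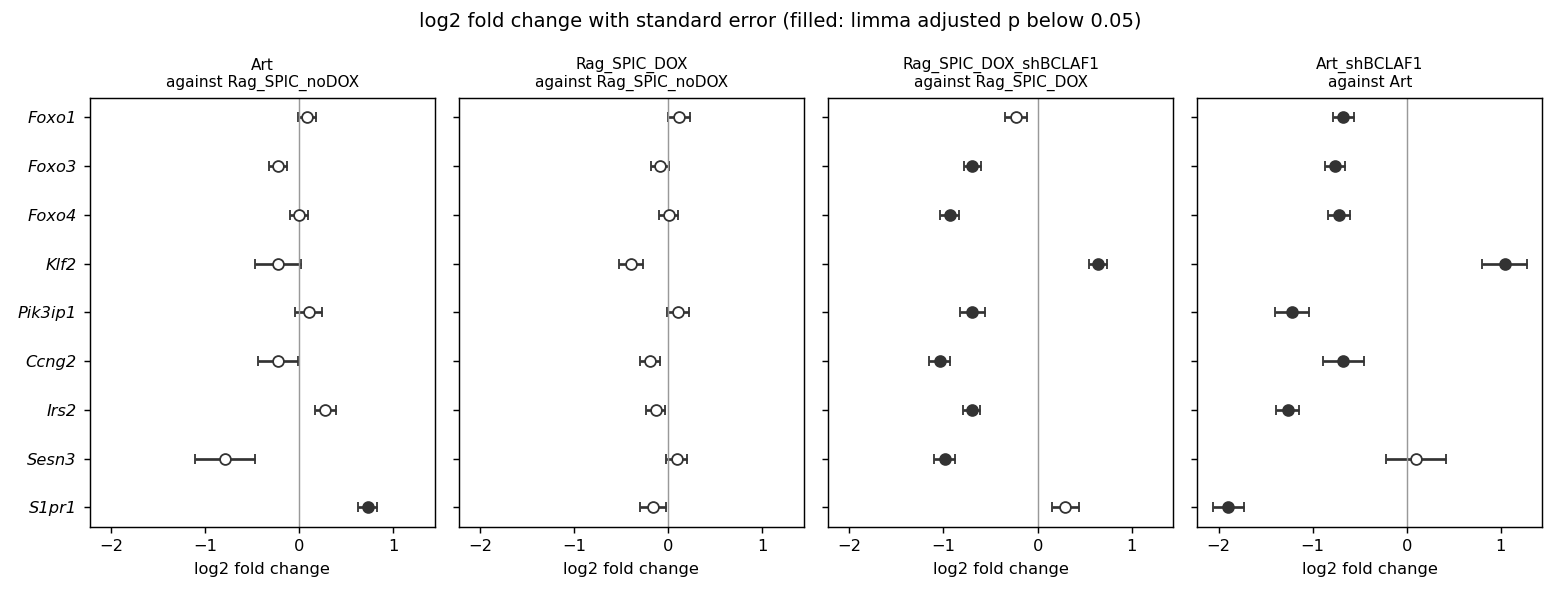
Log2 fold change of each of the 9 genes (points) with its standard error (bars) in the 4 comparisons, filled where the limma adjusted p is below 0.05. Most points lie left of 0 in both comparisons that follow the hairpin label, Klf2 lies right of 0 in both, and S1pr1 lies on opposite sides of 0 in them.

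Each comparison shares a group with another, Rag_SPIC_noDOX, Rag_SPIC_DOX or Art, so their values are not independent of each other. Without Art replicate 3, 2 of the 9 were higher and 3 lower in Art against Rag_SPIC_noDOX, where 47.4% of all genes then passed. Without any 1 of the other 5 libraries, limma called 0 of the 9 and 0 to 1 of all genes there, so the calls named for that comparison, in the lists too, need all of those 5. In Art_shBCLAF1 against Art 1 was higher and 8 lower without Art replicate 3, where 80.1% of all genes passed. Without Rag_SPIC_DOX replicate 2, 3 were lower on doxycycline (39.6% of all genes), and with the hairpin label 2 were higher and 6 lower (56.2% of all genes). On doxycycline, leaving out Rag_SPIC_noDOX replicate 1 or 3 or Rag_SPIC_DOX replicate 3 left 12 to 58 of all genes called. The ranges of the groups were apart for 4 of the 9 genes in Art against Rag_SPIC_noDOX, where this held for 37.9% of all genes (18.4% higher, 19.4% lower), and for 1 on doxycycline against 40.7% (18% higher, 22.7% lower). With the hairpin label they were apart for 7 in the Rag line against 66.1% (35.5% higher, 30.6% lower) and for 8 in the Art line against 65.6% (33.9% higher, 31.7% lower).

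**Figure D2:**
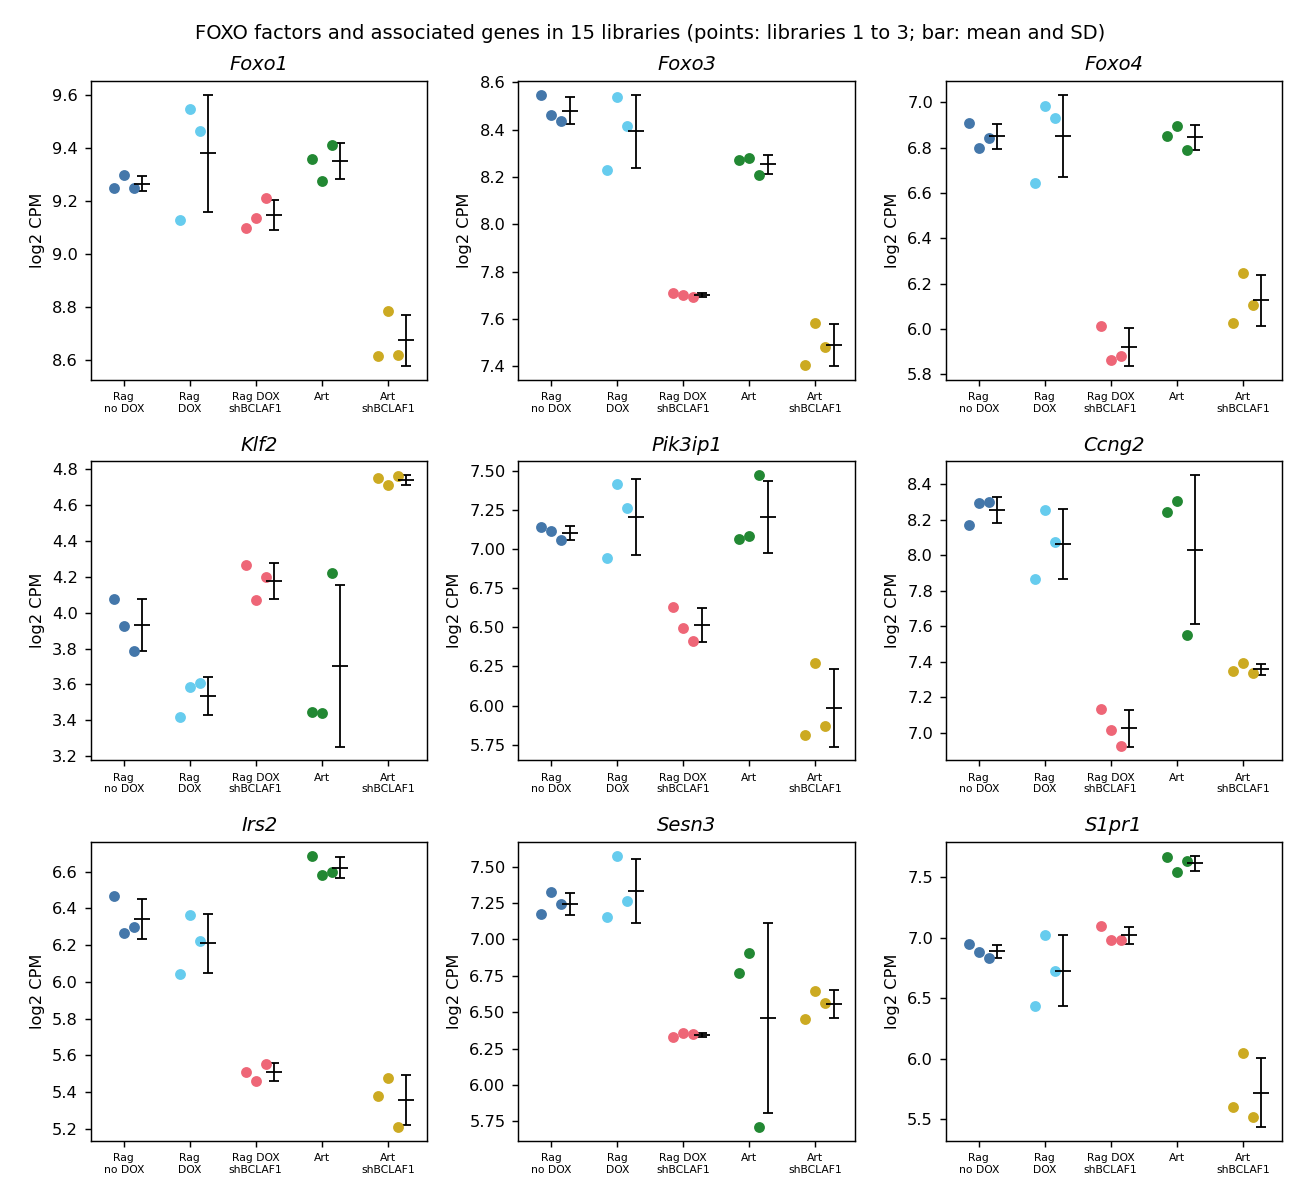
Log2 CPM of each gene in every library (points, replicates 1 to 3 from left to right) with the group mean and SD (bars), for the 5 groups; vertical scales differ and do not start at 0. Foxo3, Foxo4, Pik3ip1, Ccng2 and Irs2 sit lower in both groups labelled shBCLAF1 than in the 3 others, and Klf2 has its 2 highest group means there.

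Among the FOXO factors, Foxo1 (ENSMUSG00000044167) is the member that early B cells need for recombinase and interleukin-7 receptor expression. It was at 9.25, 9.30 and 9.25 log2 CPM in Rag_SPIC_noDOX replicates 1 to 3, 9.13, 9.54 and 9.46 in Rag_SPIC_DOX and 9.10, 9.14 and 9.21 in Rag_SPIC_DOX_shBCLAF1. In Art it was at 9.36, 9.28 and 9.41, and in Art_shBCLAF1 at 8.62, 8.79 and 8.62. The 3 Art_shBCLAF1 libraries were the lowest of all 15, and the other 4 groups lay close together, Rag_SPIC_DOX replicate 1 falling among the hairpin libraries of its line. Foxo1 fell 1.60-fold in Art_shBCLAF1 against Art (log2 fold change -0.67, SE 0.11, adjusted p = 0.00379). In Rag_SPIC_DOX_shBCLAF1 against Rag_SPIC_DOX it was at -0.23 (SE 0.12, adjusted p = 0.14) with ranges that overlap. Without Rag_SPIC_DOX replicate 1 that value was -0.36 (limma adjusted p = 0.00349), and the authors' deposited table gives -0.31 (adjusted p = 1.46e-07). The difference between the lines was -0.44 (SE 0.17, adjusted p = 0.063), which did not pass. Here and below, such a difference cannot be told apart from the SPIC construct and doxycycline, which only the Rag pair had by its labels.

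Foxo3 (ENSMUSG00000048756) encodes a factor tied to quiescence and cell death in many tissues. Its values were 8.55, 8.46 and 8.44 log2 CPM in Rag_SPIC_noDOX, 8.23, 8.54 and 8.41 in Rag_SPIC_DOX and 7.71, 7.70 and 7.69 in Rag_SPIC_DOX_shBCLAF1. Art libraries read 8.27, 8.28 and 8.21, and Art_shBCLAF1 libraries 7.41, 7.58 and 7.48. All 6 libraries labelled shBCLAF1 lay below the other 9. Foxo3 fell with the label by 0.69 in the Rag line (SE 0.09, adjusted p = 0.00144) and by 0.76 in the Art line (SE 0.11, adjusted p = 0.00191), and the interaction term was -0.07 (SE 0.13, adjusted p = 0.718). In Art it lay below every Rag_SPIC_noDOX library (log2 fold change -0.23, SE 0.10, adjusted p = 0.239), a difference that passed without Art replicate 3 (-0.21).

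Foxo4 (ENSMUSG00000042903), the third factor regulated by AKT in the same way, read 6.91, 6.80 and 6.84 log2 CPM in Rag_SPIC_noDOX, 6.64, 6.98 and 6.93 in Rag_SPIC_DOX and 6.01, 5.86 and 5.88 in Rag_SPIC_DOX_shBCLAF1. It read 6.85, 6.90 and 6.79 in Art and 6.02, 6.25 and 6.11 in Art_shBCLAF1. The 3 groups without the hairpin had means of 6.85, 6.85 and 6.85 and overlapped, and all 6 hairpin libraries lay below them. Foxo4 fell 1.91-fold in the Rag line (-0.93, SE 0.10, adjusted p = 0.000976) and 1.65-fold in the Art line (-0.72, SE 0.11, adjusted p = 0.003). The difference between the lines was 0.21 (SE 0.15, adjusted p = 0.32). The related Foxo6 was at lower counts, with 64 to 94 reads in Art_shBCLAF1 libraries, and fell in the Rag line both on doxycycline (-1.01, SE 0.16) and with the hairpin label (-1.02, SE 0.14). Its doxycycline call was lost without Rag_SPIC_noDOX replicate 1 or 3 or Rag_SPIC_DOX replicate 3 (limma adjusted p = 0.0614 to 0.0979).

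Of the genes that act on PI3K signalling, Pik3ip1 (ENSMUSG00000034614) encodes a membrane protein that inhibits PI3K. Its levels were 7.14, 7.11 and 7.06 log2 CPM in Rag_SPIC_noDOX, 6.94, 7.41 and 7.26 in Rag_SPIC_DOX and 6.63, 6.50 and 6.41 in Rag_SPIC_DOX_shBCLAF1. They were 7.06, 7.08 and 7.47 in Art and 5.82, 6.27 and 5.87 in Art_shBCLAF1. The hairpin libraries were below all others in both lines, and those of the Art line lay below those of the Rag line. Pik3ip1 fell by 0.69 in the Rag line (SE 0.13, adjusted p = 0.00557) and by 1.22 in the Art line (SE 0.18, adjusted p = 0.00255). The difference between these 2 changes was -0.53 (SE 0.24, adjusted p = 0.113), which did not pass.

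Irs2 (ENSMUSG00000038894) encodes an adaptor that links insulin-type and cytokine receptors to PI3K and is raised when FOXO is active. Rag_SPIC_noDOX libraries were at 6.47, 6.26 and 6.30 log2 CPM, Rag_SPIC_DOX libraries at 6.04, 6.36 and 6.22 and Rag_SPIC_DOX_shBCLAF1 libraries at 5.51, 5.46 and 5.55. Art was at 6.69, 6.58 and 6.60 and Art_shBCLAF1 at 5.38, 5.48 and 5.21. Art was the highest group and lay apart from the next, and both hairpin groups lay at the bottom and overlapped. Irs2 fell 1.63-fold in the Rag line (-0.70, SE 0.09, adjusted p = 0.00173) and 2.41-fold in the Art line (-1.27, SE 0.12, adjusted p = 0.000499). The fall was larger in the Art line by 0.57 (interaction -0.57, SE 0.15, adjusted p = 0.0171), where 31.3% of all genes passed that test (14.3% higher, 17% lower). Against Rag_SPIC_noDOX, Art was at 0.28 (SE 0.11, adjusted p = 0.207), which passed without Art replicate 3 (0.29).

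Ccng2 (ENSMUSG00000029385), which encodes cyclin G2, an atypical cyclin of resting and arrested cells, had 8.17, 8.30 and 8.30 log2 CPM in Rag_SPIC_noDOX, 7.86, 8.25 and 8.07 in Rag_SPIC_DOX and 7.13, 7.02 and 6.93 in Rag_SPIC_DOX_shBCLAF1. It had 8.24, 8.30 and 7.55 in Art and 7.35, 7.39 and 7.33 in Art_shBCLAF1. Art replicate 3 stood 0.73 below the mean of the other Art libraries, near the hairpin libraries. Ccng2 fell 2.06-fold in the Rag line (-1.04, SE 0.11, adjusted p = 0.000879). In the Art line it fell by 0.67 (SE 0.22, adjusted p = 0.041), and by 0.91 without Art replicate 3 (SE 0.06, limma adjusted p = 8.8e-08). That call was lost when any other single library was left out, with adjusted p between 0.103 and 0.12 and log2 fold changes from -0.69 to -0.54. Its paralog Ccng1, a p53 target, did not pass with the hairpin label in either line (0.22 and -0.02).

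Ccng2 and Irs2 are shown with their promoters because, of the 7 genes with a window in the RefSeq table (GRCm38.p6; 250 bases before to 50 after the start, by symbol), they were those holding a motif searched. Neither strand of any of the 7 windows held the forkhead core GTAAACA, which 3.65% of 32851 promoter windows hold. The insulin-response type AAAACAA was in 2 of 7, where 9.02% of all windows hold it. Both sequences below run 5′ to 3′ on the gene's own strand and end before the start of the gene, with the motif in capitals. The Ccng2 window holds 2 overlapping matches, beginning 15 and 9 bases before the start, and the Irs2 window holds 1 in reverse orientation, beginning 38 bases before the start. A match describes letters and shows no binding. The build differs from the mm9 named for the reads, so these coordinates stand for the table alone.
Ccng2, chr5:93267498-93267572, plus strand: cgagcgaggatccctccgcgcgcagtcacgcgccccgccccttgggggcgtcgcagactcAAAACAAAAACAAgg
Irs2, chr8:11008930-11009027, minus strand: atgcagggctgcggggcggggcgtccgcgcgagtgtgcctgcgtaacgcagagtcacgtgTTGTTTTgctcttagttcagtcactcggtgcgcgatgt

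Sesn3 (ENSMUSG00000032009) encodes sestrin 3, a stress protein that restrains the growth kinase complex mTORC1. It read 7.17, 7.32 and 7.24 log2 CPM in Rag_SPIC_noDOX, 7.16, 7.58 and 7.26 in Rag_SPIC_DOX and 6.33, 6.36 and 6.35 in Rag_SPIC_DOX_shBCLAF1. In Art it read 6.77, 6.91 and 5.71, and in Art_shBCLAF1 6.46, 6.65 and 6.57. Both Rag groups without the hairpin were above every other library, and Art replicate 3 was the lowest of all 15. Sesn3 fell 1.98-fold in the Rag line (-0.99, SE 0.11, adjusted p = 0.000998). In the Art line it was at 0.10 (SE 0.32, adjusted p = 0.825), a direction that Art replicate 3 decided. Without that library Sesn3 was at -0.28 (SE 0.07, limma adjusted p = 0.00444), and the authors' deposited table gives -0.28 (adjusted p = 0.000222). The change differed between the lines by 1.08 (SE 0.36, adjusted p = 0.0417), by 0.71 without Art replicate 3 (limma adjusted p = 0.00277) and by 0.59 with Rag_SPIC_DOX replicate 2 also left out (limma adjusted p = 3e-04). The call was lost on leaving out any 1 of the 9 libraries outside Art, at adjusted p of 0.0519 to 0.0837, and with centred libraries (0.95, limma adjusted p = 0.0584). Art against Rag_SPIC_noDOX was at -0.78 (SE 0.32, adjusted p = 0.223) with ranges apart, and at -0.41 without Art replicate 3 (SE 0.06, limma adjusted p = 3.2e-05). Its paralogs Sesn1 (-0.53) and Sesn2 (-0.49) fell with the hairpin label in the Rag line. Sesn2 rose in the Art line (0.53, SE 0.11, adjusted p = 0.00956), a call lost without Art_shBCLAF1 replicate 1 (limma adjusted p = 0.055).

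Klf2 (ENSMUSG00000055148), a zinc-finger factor that keeps lymphocytes quiescent and directs their trafficking, moved the other way. It was at 4.08, 3.93 and 3.79 log2 CPM in Rag_SPIC_noDOX, 3.42, 3.58 and 3.61 in Rag_SPIC_DOX and 4.26, 4.07 and 4.20 in Rag_SPIC_DOX_shBCLAF1. Art was at 3.44, 3.44 and 4.22 and Art_shBCLAF1 at 4.75, 4.71 and 4.76, all on 108 to 620 reads per library. The Art_shBCLAF1 libraries were the highest of all, and Art replicate 3 stood 0.78 above the mean of the other Art libraries. Klf2 rose 1.56-fold in the Rag line (0.64, SE 0.10, adjusted p = 0.00306) and 2.05-fold in the Art line (1.04, SE 0.24, adjusted p = 0.0122). The Art call was lost without Art_shBCLAF1 replicate 1 or 3 (limma adjusted p = 0.0504 in each), and without Art replicate 3 the value was 1.30. The difference between the lines was 0.40 (SE 0.27, adjusted p = 0.284). On doxycycline Klf2 lay below every uninduced library (-0.40, SE 0.12, adjusted p = 0.077), and the call was made without Rag_SPIC_DOX replicate 2 (-0.42, limma adjusted p = 0.0384). Without Art replicate 3 it was also lower in Art than in Rag_SPIC_noDOX (-0.49, limma adjusted p = 0.00128).

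S1pr1 (ENSMUSG00000045092) encodes the sphingosine-1-phosphate receptor by which lymphocytes leave lymphoid organs, and KLF2 is known to switch it on. Here it was at 6.95, 6.88 and 6.83 log2 CPM in Rag_SPIC_noDOX, 6.44, 7.02 and 6.72 in Rag_SPIC_DOX and 7.10, 6.98 and 6.98 in Rag_SPIC_DOX_shBCLAF1. In Art it was at 7.67, 7.54 and 7.63, and in Art_shBCLAF1 at 5.60, 6.04 and 5.52. Art was the highest group and Art_shBCLAF1 the lowest, each apart from its neighbour, with the Rag libraries in between. Its group means spanned 1.90 log2 units, the most of the 9, beside a median of 0.93 over all genes. S1pr1 fell 3.72-fold with the label in the Art line (-1.90, SE 0.17, adjusted p = 0.000382). In the Rag line it was at 0.29 (SE 0.14, adjusted p = 0.127), and 0.44 without Rag_SPIC_DOX replicate 2 (limma adjusted p = 0.00773). The authors' deposited table gives 0.28 there (adjusted p = 8.44e-05). The changes differed by -2.19 (SE 0.23, adjusted p = 0.000105), with adjusted p of at most 0.00067 when single libraries were left out.

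S1pr1 was also the gene that rose in Art against Rag_SPIC_noDOX (1.66-fold, log2 fold change 0.73, SE 0.10, adjusted p = 0.0182). The value held between 0.70 and 0.76 when single libraries were left out, but the call was lost without any 1 library other than Art replicate 3 (limma adjusted p = 0.0766 to 0.149). S1pr1 and Klf2 did not have the same order of groups, Klf2 being highest in Art_shBCLAF1 where S1pr1 was lowest. Both genes are abundant in endothelium. Of 5 endothelial markers 2 were among the genes analysed, Pecam1 and Tek, with a summed level of 186 to 223 CPM in Art and 79.4 to 96.4 CPM in Art_shBCLAF1. Tek was at 1.63 and 0.436 CPM in these groups, and the part of such cells in the result was not tested.

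Within Rag_SPIC_DOX most of the 9 genes ranked the 3 libraries in the reverse order of Myc, a driver of cell growth whose action FOXO factors oppose. Myc was at 8.06, 3.76 and 6.83 log2 CPM in replicates 1 to 3, and the mean of Rag_SPIC_noDOX was 5.60. All 9 genes were lowest in replicate 1, the library with the most Myc, where 38.6% of all genes were lowest. Of the 9, 8 were highest in replicate 2, the library with the least Myc, where 42.6% of all genes were highest, and Klf2 was the exception. From replicate 1 to replicate 2 the gap was widest for S1pr1 (6.44 against 7.02 log2 CPM) and narrowest for Klf2 (3.42 against 3.58). The uninduced mean lay between these libraries for Foxo1, Foxo3, Foxo4, Pik3ip1, Sesn3, Irs2 and S1pr1. Both facts held together for 8 of the 9 genes and for 30.2% of all genes, and since they were noticed in these data no test is given.

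**Figure D3:**
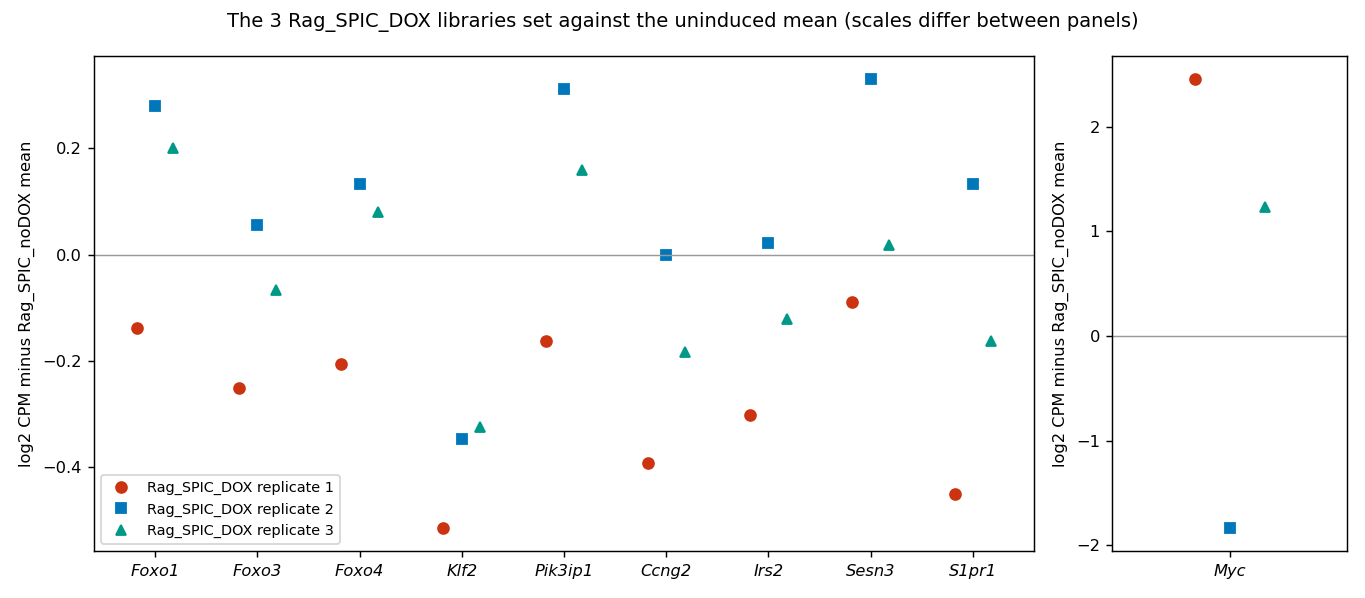
Log2 CPM of each Rag_SPIC_DOX library (circles, squares and triangles for replicates 1 to 3) minus the mean of Rag_SPIC_noDOX, for the 9 genes on the left and Myc on the right, whose scale is wider. Replicate 1 is lowest for all 9 genes and highest for Myc, at 8.06 log2 CPM against 3.76 in replicate 2.

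Across groups Myc was at 4.07 log2 CPM in Art, 5.60 in Rag_SPIC_noDOX, 6.21 in Rag_SPIC_DOX, 8.79 in Art_shBCLAF1 and 9.21 in Rag_SPIC_DOX_shBCLAF1. Irs2 took the reverse order except that both hairpin groups changed places, with ranges that overlap. The groups with the most Myc were those in which Foxo3, Foxo4, Pik3ip1, Ccng2 and Irs2 were lowest. No correlation is given, and whether one gene acts on another was not tested.

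Other genes described as FOXO-activated were followed in a list of 51, of which 45 were analysed. They include cell-cycle inhibitors, recombinase, autophagy and survival genes. With the hairpin label 26 fell and 7 rose in the Rag line, where 53.6% of all genes passed (28.5% higher, 25.1% lower). The median log2 fold change was -0.49 beside 0.05 over all genes. Without Rag_SPIC_DOX replicate 2 the counts were 26 and 6, where 56.2% of all genes passed. The lowest were Rag1 (-1.55, SE 0.17), a recombinase subunit, and Gadd45a (-1.49, SE 0.15), a stress and DNA-repair gene. The highest were Slfn2 (1.63, SE 0.07), known for holding T cells and monocytes quiescent, and Tnfsf10 (1.13, SE 0.24), which encodes the death ligand TRAIL. Tnfsf10 had few reads, 11 to 13 per library in Rag_SPIC_DOX and 21 to 35 in Rag_SPIC_DOX_shBCLAF1.

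In the Art line 18 of the 45 fell and 7 rose, where 49% of all genes passed (25% higher, 24.1% lower). The median was -0.41 beside 0.05. Without Art replicate 3 the counts were 29 and 11, where 80.1% of all genes passed. Bcl6 (-2.84, SE 0.23), a transcriptional repressor, was among the lowest. Trim63 (-3.69, SE 0.76), a ubiquitin ligase of wasting muscle, was the other, but it had 26 to 42 reads in Art libraries and 1 to 5 in Art_shBCLAF1 libraries, so its fold depends on the 0.5 reads added. Bnip3 (2.08, SE 0.26), a gene of mitochondrial clearance, rose most. With each library centred on its median over all genes, 26 fell and 3 rose in the Rag line and 22 fell and 5 rose in the Art line. Rag1 is also counted among the pre-B markers, and Tcf7 among those of T cells.

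Without the hairpin the same list moved less. In Rag_SPIC_DOX against Rag_SPIC_noDOX 9 of 45 fell and none rose, where 11.8% of all genes passed (3.16% higher, 8.67% lower). Trim63 (-2.001, SE 0.40) and Arrdc3 (-1.92, SE 0.08), an alpha-arrestin, were the lowest. In Art against Rag_SPIC_noDOX 4 fell, namely Arrdc3 (-1.87, SE 0.17), Gadd45a (-1.44, SE 0.24), Txnip (-1.15, SE 0.10) and Klf4 (-1.02, SE 0.11), and Tcf7 rose (0.64, SE 0.12). Of all genes 5.14% passed in that comparison (2.58% higher, 2.56% lower). Txnip encodes an inhibitor of thioredoxin. Arrdc3 and Txnip are close relatives that respond to glucose as well as to FOXO. The medians were -0.18 and -0.11, beside 0.00 and -0.03 over all genes. Without Rag_SPIC_DOX replicate 2, 15 fell and 3 rose on doxycycline, where 39.6% of all genes passed, and without Art replicate 3, 19 fell and 11 rose in Art, where 47.4% passed. Arrdc3 passed on doxycycline whichever 1 library was left out, Trim63 did not without Rag_SPIC_noDOX replicate 1, 2 or 3 or Rag_SPIC_DOX replicate 3 (limma adjusted p = 0.0819 to 0.137), and without any 1 library other than Art replicate 3 none of the list passed in Art.

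**Figure D4:**
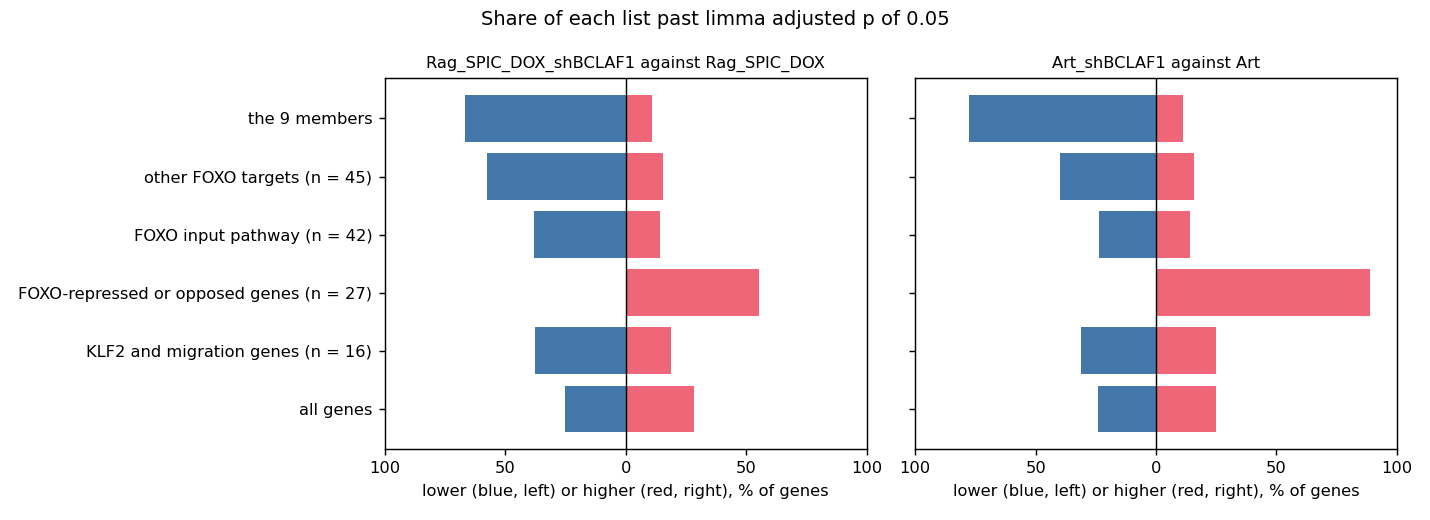
Percent of each list that was lower (blue, to the left) or higher (red, to the right) at a limma adjusted p below 0.05 in both comparisons of the hairpin label, with all 11551 genes at the bottom. The 9 genes extend mostly left, and the genes repressed or opposed by FOXO extend to the right in both panels, with none lower on the deposited scale and 1 lower in the Art line once libraries are centred.

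Genes described as lowered by FOXO, or raised by the Abl, MAP kinase and STAT5 signals that imatinib blocks, went the other way. All 27 were analysed. With the hairpin label 15 rose and none fell in the Rag line (median 1.27) and 24 rose and none fell in the Art line (median 1.42), beside 0.05 over all genes. Of all genes 53.6% passed in the Rag line (28.5% higher, 25.1% lower) and 49% in the Art line (25% higher, 24.1% lower). With centred libraries 14 rose and none fell in the Rag line, and 22 rose and 1 fell in the Art line. Without Rag_SPIC_DOX replicate 2 it was 18 higher and 1 lower (median 0.70), where 56.2% of all genes passed. Without Art replicate 3 it was 25 higher and 2 lower (median 1.60), where 80.1% of all genes passed. In the Rag line Myc (2.996, SE 0.999, adjusted p = 0.0419) and the immediate-early gene Egr1 (2.03, SE 0.39, adjusted p = 0.006) rose most. The Myc value rests on Rag_SPIC_DOX replicate 2 and was 1.77 without it (SE 0.31, limma adjusted p = 0.00328). Its call was lost without Rag_SPIC_DOX replicate 3 or any 1 Rag_SPIC_DOX_shBCLAF1 library (limma adjusted p = 0.0826 to 0.108). In the Art line Spry4 (6.57, SE 0.45), a feedback inhibitor of MAP kinase signalling, and Etv4 (5.58, SE 0.26), an ETS factor, rose most. Their reads in Art were few, 3 to 5 per library for Spry4 and 2 to 19 for Etv4, against 490 to 772 and 418 to 698 in Art_shBCLAF1. In Art against Rag_SPIC_noDOX 6 of the 27 fell and none rose, where 5.14% of all genes passed. Myc (-1.53, SE 0.16) and Dusp4 (-1.50, SE 0.18), a MAP kinase phosphatase, were the lowest. On doxycycline 2 fell, the MAP kinase inhibitors Spry1 (-0.70) and Spry2 (-0.92), where 11.8% of all genes passed. There 15 rose and 2 fell without Rag_SPIC_DOX replicate 2 (39.6% of all genes passed). None of the 27 passed there without Rag_SPIC_noDOX replicate 1 or 3 or Rag_SPIC_DOX replicate 3. In Art against Rag_SPIC_noDOX 13 were lower and 5 higher without Art replicate 3 (47.4% of all genes passed), and none passed without any other 1 library.

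The pathway that feeds into FOXO, from PI3K subunits and phosphatases to AKT and 14-3-3 proteins, had 42 of 46 genes analysed. With the hairpin label 16 fell and 6 rose in the Rag line, near the share of all genes called (53.6%), and the median was -0.06 beside 0.05 over all genes. The highest was Pik3cd (1.21, SE 0.13), the PI3K catalytic subunit of leukocytes, and the lowest were Foxo6 and Insr, the insulin receptor gene (-0.72, SE 0.15). In the Art line 10 fell and 6 rose, where 49% of all genes passed, with a median of -0.35 beside 0.05. Xpo1 (1.97, SE 0.43), the exporter that carries FOXO out of the nucleus, and Skp2 (1.83, SE 0.25), part of a ubiquitin ligase for FOXO1 and the cell-cycle inhibitor p27, rose most. Stk4 (-1.29, SE 0.13), a kinase that favours nuclear FOXO, fell most. Without Art replicate 3, 23 fell and 11 rose in the Art line, near the share of all genes then called (80.1%). With centred libraries 15 fell and 3 rose in that line. On doxycycline 2 rose (Ywhab 0.48 and Mapkap1 0.29) and 3 fell, among them Foxo6 and Sgk1 (-0.52), where 11.8% of all genes passed. Leaving out Rag_SPIC_noDOX replicate 1 or 3 or Rag_SPIC_DOX replicate 3 left none of the 42 called there. In Art against Rag_SPIC_noDOX 1 rose and none fell, where 5.14% of all genes passed. Without Rag_SPIC_DOX replicate 2 the counts on doxycycline were 7 and 8 (39.6% of all genes passed), and without Art replicate 3 those in Art were 15 and 10 (47.4% of all genes passed).

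Of 19 genes of KLF2 and lymphocyte migration 16 were analysed. With the hairpin label 3 rose and 6 fell in the Rag line (median -0.24) and 4 rose and 5 fell in the Art line (median -0.34), beside medians of 0.05 over all genes. These counts are near the shares of all genes called, 53.6% and 49%. Without Art replicate 3, 6 rose and 7 fell in the Art line, near the share of all genes then called (80.1%). The largest rises were S1pr4 (1.03, SE 0.07) and Rgs1 (0.77, SE 0.26, a call lost without any 1 library except Rag_SPIC_DOX replicate 1) in the Rag line and the integrin gene Itgb7 (2.86, SE 0.23) and Rgs1 (1.98, SE 0.21) in the Art line. Itgb7 had 5 to 37 reads per library in Art and 137 to 188 in Art_shBCLAF1. Among the largest falls were Itgb7 (-1.31, SE 0.42, lost without Rag_SPIC_DOX replicate 3 or any 1 hairpin library) in the Rag line and the chemokine receptor gene Cxcr4 (-1.42, SE 0.21) and S1pr2 (-1.34, SE 0.18) in the Art line. Rgs1, which dampens chemokine receptors, fell on doxycycline (-1.14, SE 0.26) and in Art against Rag_SPIC_noDOX (-1.49, SE 0.21). On doxycycline Cxcr5 (-0.88, SE 0.18) and Ccr7 (-0.64, SE 0.08) fell as well, where 11.8% of all genes passed (3.16% higher, 8.67% lower). Both the Rgs1 and Cxcr5 calls there were lost without any 1 Rag_SPIC_noDOX library or Rag_SPIC_DOX replicate 3 (limma adjusted p = 0.0714 to 0.154). None of the 16 passed there without Rag_SPIC_noDOX replicate 1 or 3 or Rag_SPIC_DOX replicate 3. Without Rag_SPIC_DOX replicate 2 that comparison had 6 falls and 3 rises (39.6% of all genes passed), and without Art replicate 3 Art had 6 and 4 (47.4% of all genes passed).

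Paralogs of the 9 genes did not share one direction. Of 14, 11 were analysed. With the hairpin label 3 rose and 4 fell in the Rag line and 1 rose and 2 fell in the Art line, where 53.6% and 49% of all genes passed. The S1pr1 paralogs split, S1pr2 falling in both lines (-1.29 and -1.34) and S1pr4 rising in the Rag line with a value of -0.88 in the Art line that did not pass. Klf4 rose in the Rag line (0.32, SE 0.10), a call lost without Rag_SPIC_DOX replicate 3 or any 1 hairpin library there (limma adjusted p = 0.0594 to 0.119). It fell in the Art line (-0.74, SE 0.17), a call lost without Art_shBCLAF1 replicate 1 or 3 (limma adjusted p = 0.0547 and 0.0582). The difference between the lines passed (-1.06, SE 0.20, adjusted p = 0.00299). On doxycycline Foxo6, Klf4 (-0.44) and Klf6 (-0.36) fell, where 11.8% of all genes passed (3.16% higher, 8.67% lower). None of the 11 passed there without Rag_SPIC_noDOX replicate 1 or 3 or Rag_SPIC_DOX replicate 3. In Art against Rag_SPIC_noDOX Klf4 fell, where 5.14% of all genes passed. With centred libraries 1 rose and 4 fell in the Rag line and none rose and 5 fell in the Art line. Without Rag_SPIC_DOX replicate 2 the Rag line had 6 rises and 4 falls (56.2% of all genes passed), and without Art replicate 3 the Art line had 1 and 7 (80.1% of all genes passed).

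Markers of cell identity moved with these groups. The summed level of the 12 pre-B markers was 12504 to 13458 CPM in Art and 5289 to 5787 CPM in Art_shBCLAF1, and 7066 to 10308 CPM in Rag_SPIC_DOX against 6930 to 7179 CPM in Rag_SPIC_DOX_shBCLAF1. The 7 of 10 myeloid markers measured summed to 707 to 933 CPM in Art and 92.6 to 109 CPM in Art_shBCLAF1, most of it from Itgam (812 and 25.9 CPM on average). The other lists were T and NK cells (3 of 10 measured, 118.9 to 128.8 against 21.8 to 23.3 CPM), erythroid (2 of 5, at most 3.1 CPM), plasma cells (5 of 5, 541 to 674 against 424 to 466 CPM) and stroma, of which Vim alone was measured. Vim went the other way, at 318 to 799.5 CPM in Art and 893 to 1050 CPM in Art_shBCLAF1, and at 637 to 827 CPM in Rag_SPIC_DOX and 893 to 912 CPM in Rag_SPIC_DOX_shBCLAF1. Cd14 was at 0 reads in 2 libraries and Klrd1 in 1, and no marker analysed was at 0 through a whole group. Their part in the results was not tested.

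Scaling moved the hairpin comparisons. Centring each library on its median over all genes shifted all fold changes down by 0.10 in the Rag line and by 0.23 in the Art line, so that 2155 genes were higher and 3599 lower in Art_shBCLAF1 against Art, where the deposited scaling gives 2884 and 2780. Under it each of the 9 genes kept its direction and its side of the threshold in both comparisons, except Sesn3 in the Art line, which went from 0.10 to -0.13 and passed in neither.

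Genes were ranked by Pearson's r of log2 CPM with each of the 9 over 15 libraries, as a description that the group differences carry. Only genes of above-median level outside the 9 and the lists above entered, and the most alike of these are named. They were Plekho2 (0.99) and Mxd1 (0.99), a MYC antagonist, for Foxo3, Arid1b (0.98) for Foxo1 and Ankrd33b (0.99) for Foxo4. For the other 6 they were Zfp608 (0.98) for Pik3ip1, Itgam (0.99) for Irs2, Gnb4 (0.99) for Ccng2, Rassf3 (0.98) for Sesn3, Rhoq (0.98) for S1pr1 and Lgals9 (0.94) for Klf2. Among the genes ranked, Klf2 had a weaker best partner than the other 8.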

How the data were processed

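The deposited tables hold log2 CPM per library, which are read counts plus 0.5, scaled to an effective library size. Subread, featureCounts 1.4.5, edgeR, limma and mm9 are named in the submitters' processing notes, with no role or order. Each of the 4 tables lists genes at the authors' adjusted p-value below 0.05 (highest 0.0499). A gene outside all 4 was therefore not analysed here, whether or not it was detected. Per the file headers the authors also gave log2 fold changes, p-values, a moderated statistic and log odds (each a score) and a linear fold. The tables were joined by Ensembl identifier into 11551 genes, merging 152 duplicate rows, and 4 symbols lay on several identifiers. Below 1000 reads, 100% of values came out within 0.05 of a whole count once the library size was undone.

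Each comparison was fitted with limma 3.58.1 in R 4.3.3 (lmFit, eBayes with a mean-variance trend), on its 6 libraries, or 12 for the interaction. Tests were two-sided with Benjamini-Hochberg adjustment over 11551 genes, and were checked on simulated data. Leaving out each library in turn for the lists was added after seeing the data. The union was itself chosen by differences, which raises the share of genes called. The 9 genes and the lists were chosen with earlier results of these data known. All 9 are named, as are the 2 highest and 2 lowest that passed in each list and comparison, except some that are not reported here. Genes named past that rule (Txnip, Klf4 as a FOXO target, Ccng1, Sesn1, Sesn2 in the Rag line, Klf6, Ccr7, and S1pr4 in the Art line) were chosen after their values were seen. Art replicate 3 was matched to a column whose name differs from its label by 1 character. Promoters came from RefSeq by symbol, and Foxo4 and S1pr1 have no window shown.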

Additional observations from a re-analysis of the deposited data

Results flagged for a closer look

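For 3 of the 9 genes the change with the shBCLAF1 label differed between the lines. This is the interaction term of limma over 12 libraries (the effect in Art minus that in Rag_SPIC_DOX). The Rag pair also had the induced SPIC construct and doxycycline, which the Art labels do not name. Line, construct and doxycycline cannot be told apart in this term. The count is near the share of all genes that passed that test, 31.3% (14.3% higher, 17% lower). The difference was -0.57 for Irs2 (adjusted p = 0.0171), which fell in both lines. It was 1.08 for Sesn3 (adjusted p = 0.0417), which fell in the Rag line, and 0.71 without Art replicate 3. The Sesn3 call was lost with centred libraries (limma adjusted p = 0.0584) and without any 1 of the 9 libraries outside Art. It was -2.19 for S1pr1 (adjusted p = 0.000105), which fell in the Art line and did not pass in the Rag line.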

How the results depend on the processing

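Counts of the 9 genes called depended on the fit in the comparisons without the hairpin. For Art against Rag_SPIC_noDOX (1 gene, 594 of all genes) one fit of all 15 libraries gave 2 and 1957, array weights 5 and 6547, and leaving out single libraries 0 to 5 and 0 to 5473, with the upper ends without Art replicate 3. Where limma called 0 of the 9 on leaving out a library, 1 to 2 had an unadjusted p below 0.05. For doxycycline (0 genes, 1367 of all) array weights gave 7 and 8589, and leaving out libraries 0 to 3 and 12 to 4569, with the upper ends without Rag_SPIC_DOX replicate 2. With the hairpin label, array weights gave 10078 genes in the Rag line and 9839 in the Art line, and leaving out libraries 3945 to 7576 and 3740 to 9252, while the 9 gave 7 to 8 and 6 to 9. The interaction (3 genes, 31.3% of all genes) gave 8 with array weights, 2 centred (Sesn3 lost) and 2 to 5 without single libraries (23.1% to 54.4% of all genes). It gave 6 without both Art replicate 3 and Rag_SPIC_DOX replicate 2, an alternative chosen after seeing the data. The array-weight estimate stopped before its convergence tolerance. The cause of these differences was not tested.

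With the replicate block, Art against Rag_SPIC_noDOX gave 0 of the 9 (2 at an unadjusted p below 0.05) and 0 of all genes (1902 unadjusted), and doxycycline 0 and 150. The hairpin label gave 7 and 5171 in the Rag line and 7 and 4779 in the Art line, where Ccng2 was lost (limma adjusted p = 0.0532), and the interaction gave Irs2, Sesn3 and S1pr1 as before. Same-numbered libraries correlated at -0.23 to 0.20 in their deviations from group means, and no comparison had every pair above 0.1. With 3 libraries per group and outlying libraries among them, these values cannot show whether same-numbered libraries share a batch.

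Directions turned for small log2 values. In Art against Rag_SPIC_noDOX, Foxo4 was 0.0269 with array weights, 0.0463 centred and -0.0309 to 0.0256 without single libraries. There Pik3ip1 was -0.0025 with array weights and -0.0313 to 0.173 without single libraries, and Ccng2 -0.361 to 0.0171, each turning without Art replicate 3. On doxycycline, Foxo4 was -0.0496 centred and -0.0629 to 0.106 without single libraries, Pik3ip1 -0.0022 to 0.235 and Sesn3 -0.0356 to 0.174, each turning without Rag_SPIC_DOX replicate 2. In Art_shBCLAF1 against Art, Sesn3 was -0.259 with array weights, -0.134 centred and -0.280 to 0.317 without single libraries. The Foxo3 interaction ran from -0.165 to 0.0109. A minimum mean of 1 log2 CPM and adding 2 reads changed no count of the 9. The planned edgeR and DESeq2 alternatives were not run, since the deposited unit is log2 CPM. Art replicate 3 has the lowest depth of the libraries, and Klf2 has the fewest reads of the 9. Whether depth accounts for how that library differs was not tested.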
